A study of Mus musculus with 24 samples.

Results

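The 6 arrays of 3T3-L1 adipocytes treated with GW347845, a selective PPARγ agonist, were divided by their replicate numbers into replicates 1 to 3 and replicates 4 to 6, 3 arrays a side, out of 24 sample records in the series. The division was chosen on the measured values of these 6 arrays, and the labels give no reason for it, no batch, day, chip or scan. Differences between the 2 sides are therefore a description and carry no test. 3T3-L1 is a mouse fibroblast line that turns into fat cells under hormonal induction. All cultures had been induced with dexamethasone, isobutylmethylxanthine and insulin, and all received insulin during treatment. From day 11 after induction the medium contained GW347845, the PPARδ agonist GW610742 or the DMSO vehicle for 2 days. The labels give GW347845 at 100 μM and GW610742 at 1 μM, while the study's methods give other doses of GW347845 for the cells, nanomolar in the culture section and 1 μM in the isotope labelling, and which dose the arrays hold was not resolved here. There were 6 arrays of each treatment. The same 6 DMSO arrays were deposited in 2 normalizations, one with each agonist. Nothing in the labels says whether arrays of one number came from one set of flasks, so p-values measure only the spread between these arrays.

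PPARγ is a nuclear receptor that pairs with RXR on DNA and drives the adipocyte programme. Its target genes cover fatty acid uptake, triacylglycerol synthesis and the proteins that coat lipid droplets. As fibroblastic precursors become adipocytes they gain these transcripts and lose much of their collagen, cytoskeletal and proliferative expression. The questions here were which transcripts stood apart between the 2 sides of treated cultures, which did not, and whether DMSO and PPARδ agonist arrays of the same numbers stood apart too.

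Values are on the log2-like scale of a variance-stabilizing transformation, on which a difference of 1 is close to 2-fold for bright probes and understates the change of dim ones. All 6 treated arrays had a value at 13755 probes, which represented 8297 genes, each taken on its brightest probe. Within each side the arrays correlated at r = 0.9923 to 0.9972 across probes and between the sides at 0.9837 to 0.9907, while the 6 DMSO arrays correlated at 0.9952 to 0.9981 with each other. The first principal axis of the 6 treated arrays held 64.3% of their variance, and its weights were above 0 in replicates 1 to 3 and below 0 in replicates 4 to 6. The second axis held 17.2% and set replicate 6, at a weight of 0.74, against replicate 4, at -0.58. In bulk cultures fewer adipocytes and less RNA of a gene per adipocyte cannot be told apart.

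The clearest difference was in adipocyte and lipid storage transcripts, which were higher in replicates 1 to 3. Of the 8297 genes, 1191 (14.4%) had no overlap between sides and were higher in replicates 1 to 3, and 1711 (20.6%) had none and were higher in replicates 4 to 6. Large differences lay mostly on one side, since 83 genes were higher in replicates 1 to 3 by 1 or more and 6 were higher in replicates 4 to 6 by as much. With a difference of at least 0.5 the counts were 267 and 58. The split of small differences moved with the scaling. At the probe level 1878 were higher in replicates 1 to 3 and 2674 in replicates 4 to 6, and after cyclic loess normalization 2440 and 1869. The median difference over all genes was -0.03 (replicates 1 to 3 minus 4 to 6, as throughout).

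Scd1, the desaturase that makes oleate from stearate, had the largest difference. It read 10.99, 11.10 and 11.56 in replicates 1 to 3 and 8.75, 8.65 and 8.66 in replicates 4 to 6, a difference of 2.53 or 5.78-fold. Its DMSO arrays read 11.14, 11.39 and 11.86 in replicates 1 to 3 and 10.22, 9.87 and 10.08 in replicates 4 to 6. Scd1 was therefore split in vehicle too, and replicates 4 to 6 with agonist lay below every DMSO array. Cidec, which fuses lipid droplets, read 12.74, 12.90 and 13.21 against 11.00, 10.51 and 10.16, a difference of 2.40. All 3 of the high Cidec arrays lay above the whole DMSO range, whose highest array was 11.49. Adig, a small adipocyte-restricted membrane protein, read 11.16, 11.46 and 11.55 against 9.75, 9.02 and 8.56. G0s2, the inhibitor of the lipase encoded by Pnpla2, read 10.02, 10.28 and 10.39 against 8.54, 8.05 and 7.75. Pnpla2 itself, which takes the first fatty acid off triacylglycerol, read 13.04, 13.28 and 13.40 against 11.84, 11.34 and 11.11. The droplet-fusing protein, the lipase and its inhibitor thus lay on the same side.

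The carboxylesterases Ces1d and Ces1f, which hydrolyse lipid esters, were higher in replicates 1 to 3 by 2.35 and 2.08. Mrap, the accessory protein of the melanocortin receptor for ACTH, differed by 2.16, and Ffar2, a receptor for short-chain fatty acids, by 2.08. The carbonyl reductase Cbr2 differed by 2.33 and the aldehyde dehydrogenase Aldh1a7 by 1.93. Acaa1b, a peroxisomal thiolase, read 9.44, 9.94 and 10.19 against 8.04, 7.66 and 7.44, while its 6 DMSO arrays lay between 6.82 and 7.36. Acaa1b was thus above vehicle in all 6 treated arrays and furthest above it in replicates 1 to 3. The remaining 4 of the 15 genes with the largest differences in this direction were Ubd (2.14), a ubiquitin-like modifier, Orm1 (1.98), an acute phase protein, Ifi27l2a (1.97), an interferon-inducible membrane protein, and Cox8b (1.93), a cytochrome oxidase subunit.

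**Figure D1:**
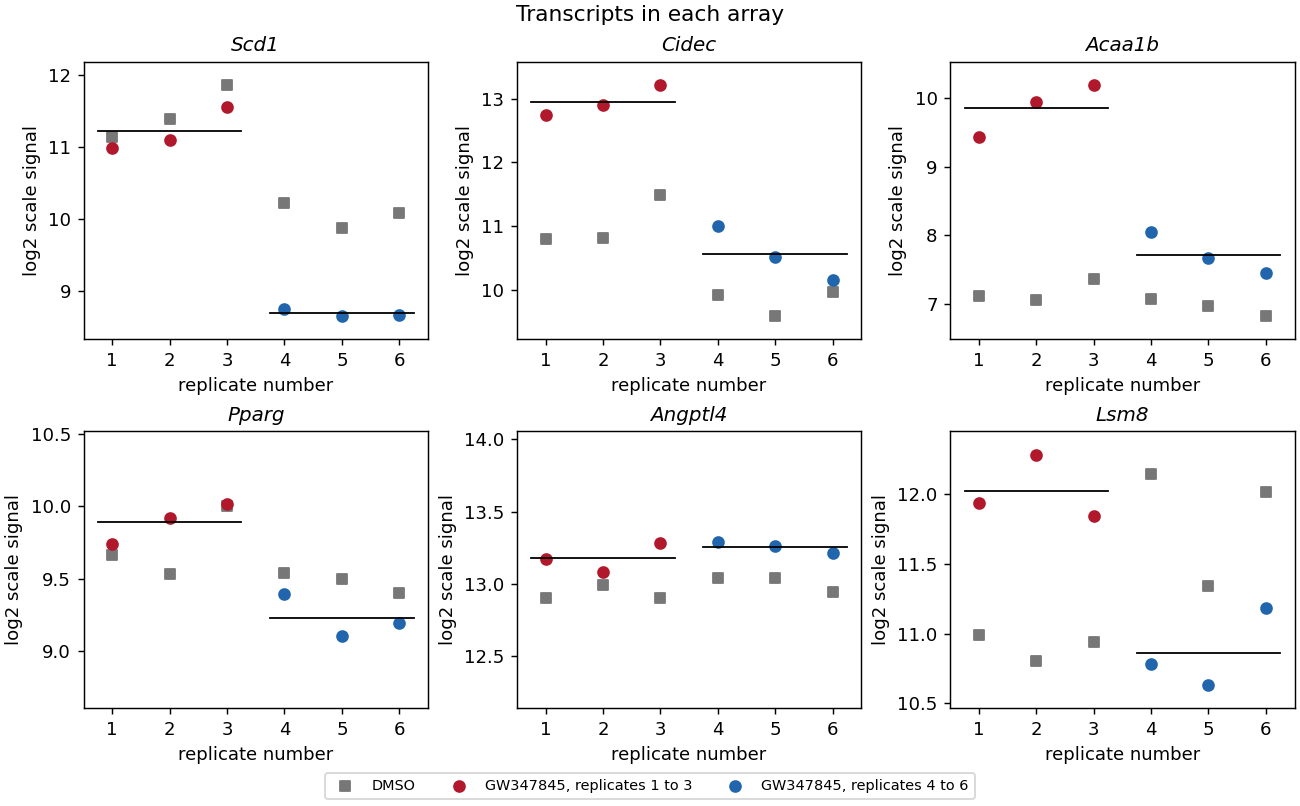
Signal (log2 scale, y axis) of 6 transcripts in each array by replicate number (x axis), with DMSO arrays as grey squares, GW347845 replicates 1 to 3 in red, replicates 4 to 6 in blue and a black line at the mean of each side. Scd1, Cidec, Acaa1b and Pparg lie higher in replicates 1 to 3 with agonist, Angptl4 lies between 13.08 and 13.29 in all 6, and Lsm8 runs in opposite directions in agonist and DMSO arrays.

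All 17 adipocyte markers measured had no overlap between sides and were higher in replicates 1 to 3, where 14.4% of all genes did so. Their differences ran from 0.35 for Slc2a4, the insulin-regulated glucose transporter, to 2.40 for Cidec, with a median of 1.33 beside -0.03 over all genes. Adipoq, the hormone adiponectin, chosen after its values were seen, was bright on both sides and read 13.86, 14.03 and 14.12 against 12.86, 12.51 and 12.05. Gpd1, which supplies the glycerol backbone of triacylglycerol, differed by 1.88, and the glycerol channel Aqp7 by 1.68. Lpl, the lipase that frees fatty acids from lipoproteins, differed by only 0.45, at 14.43, 14.69 and 14.57 against 14.22, 14.04 and 14.08. Lep, the hormone leptin, was near the dim end of the array on both sides, at 6.87 to 7.26 against 6.61 to 6.80. Fabp4, the adipocyte fatty acid binding protein, was read by a dim probe, at 7.06 to 7.49 against 6.40 to 6.68. Of these markers Adipoq and Lpl were thus bright on both sides, whereas Lep and Fabp4 were dim on both. The gene lists share members, so their counts are not independent. Of the 17 markers, 10 are also among the droplet, triacylglycerol synthesis, fatty acid synthesis, transcription factor or PPAR target genes described below.

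Most enzymes of triacylglycerol synthesis were higher in replicates 1 to 3. Of 11 measured, 8 were higher in replicates 1 to 3 and 1 in replicates 4 to 6, beside 14.4% and 20.6% of all genes. Their median difference was 0.87. Dgat2, which adds the last fatty acid, read 9.46, 9.77 and 9.97 against 8.33, 7.84 and 7.67. The other enzyme of that step, Dgat1, named after its values were seen, differed by 1.10. Agpat2, which makes phosphatidate, read 10.68, 10.89 and 11.06 against 9.29, 9.27 and 9.08, and Gpat3, which acts one step before it, differed by 1.48. The droplet and lipolysis genes gave 12 of 15 higher in replicates 1 to 3 and 1 in replicates 4 to 6, beside the same shares of all genes. Their median was 0.68. Plin1, the coat protein that guards the droplet of mature adipocytes, read 8.10, 8.35 and 8.46 against 6.96, 6.85 and 6.76. Plin2, the coat protein of droplets in most cell types, also named after its values were seen, differed by 0.59, and Plin3, which moves to droplets from the cytosol, was lower in replicates 1 to 3, by -0.20. Rab18 (-0.18) and Hilpda (-0.10), which are also found on droplets, overlapped between the sides.

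The oxidative pathways of the mitochondrion were higher in replicates 1 to 3 as well, by smaller steps. All 16 genes of β-oxidation were higher without overlap, with differences from 0.25 to 1.27 and a median of 0.48. Cpt2, which reloads fatty acids onto coenzyme A inside the mitochondrion, read 11.34, 11.46 and 11.53 against 10.28, 10.20 and 10.03. Hadhb, a thiolase subunit of the trifunctional enzyme, read 10.09, 10.52 and 10.89 against 9.27, 9.19 and 9.45, while all 6 DMSO arrays lay between 10.06 and 10.42. All 3 Hadhb arrays of the low side thus lay below the vehicle range. The dehydrogenases Acadm and Acads, for medium and short chains, differed by 0.88 and 0.87. Of 19 genes of the TCA cycle and pyruvate dehydrogenase, 15 were higher in replicates 1 to 3 and 0 in replicates 4 to 6, with a median of 0.39. Pdhb, a subunit of pyruvate dehydrogenase, differed by 1.00, Mdh1 and Mdh2, the malate dehydrogenases, by 0.75 and 0.67, and Cs, citrate synthase, by 0.71. Dim second probes differed by 0.01 for Mdh1 and by 0.15 and 0.25 for Pdhb. Of 52 electron transport genes, 42 were higher in replicates 1 to 3 and 0 in replicates 4 to 6, with a median of 0.30 and a largest difference of 0.80. Cyc1, cytochrome c1 of complex III, had that difference, at 11.38, 11.50 and 11.60 against 10.80, 10.72 and 10.58. The 42 of 52 stand beside 14.4% of all genes.

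Cox8b and Cox7a1, oxidase subunits that are abundant in brown fat and muscle, were also on this side. Of 14 brown adipocyte markers listed 4 were measured, with 3 higher in replicates 1 to 3 and 1, at -0.17, in replicates 4 to 6. These counts stand beside 14.4% and 20.6% of all genes, and Ucp1 and Cidea were not measured. Cox8b read 9.17, 9.36 and 9.63 against 7.69, 7.46 and 7.21. Cox7a1 read 8.21, 8.32 and 8.46 against 7.35, 7.41 and 7.22, and its 6 DMSO arrays lay within 7.10 to 7.24. Cox7a1 had a difference of 1.00 with agonist and -0.01 in vehicle.

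Synthesis of fatty acids and cholesterol divided by enzyme. Of 16 genes of fatty acid synthesis, 10 were higher in replicates 1 to 3 and 2 in replicates 4 to 6 (median 0.29). These counts stand beside 14.4% and 20.6% of all genes. Slc25a1, which carries citrate out of the mitochondrion, differed by 1.24, and Pcx, which replenishes oxaloacetate, by 1.29. Scd2, the second stearoyl desaturase, read between 7.85 and 8.01 in all 6 arrays and overlapped where Scd1 did not. Fads2, the desaturase of polyunsaturated chains, differed by -0.01. In the cholesterol list 11 of 15 were higher in replicates 1 to 3 and 0 in replicates 4 to 6, with a median of 0.42. Fdps, which makes farnesyl pyrophosphate, read 11.27, 11.52 and 11.49 against 10.20, 9.92 and 10.07. Sqle (0.56), which oxidizes squalene, and Lss (0.84), which cyclizes the product, followed, and a second, dim probe of Lss differed by -0.05. Srebf2, the transcription factor of the pathway, lay between 7.29 and 7.39 in all 6 arrays. Of 13 glycolytic genes 4 were higher in replicates 1 to 3 and 2 in replicates 4 to 6, beside 14.4% and 20.6% of all genes, and the median was -0.03. Aldoa, aldolase, differed by 0.57 and Pkm, pyruvate kinase, by -0.27. Pgk1 (-0.02) and Pgam1 (0.02), the enzymes between them, overlapped.

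The receptors differed less than the leading genes. Pparg itself read 9.74, 9.92 and 10.02 in replicates 1 to 3 and 9.39, 9.10 and 9.19 in replicates 4 to 6, a difference of 0.66. Its DMSO arrays lay between 9.40 and 10.00. Ppard, the receptor of the other agonist, read 10.06, 10.22 and 10.09 against 10.08, 10.06 and 9.96, and overlapped. Rxra, the DNA-binding partner, overlapped as well, at a difference of 0.07. Nr1h3, the oxysterol receptor LXRα, differed by 0.89 and Ppargc1b, a coactivator of oxidative genes, by 0.86, against 0.34 for Ppargc1a. Klf5, an early adipogenic factor, overlapped at -0.02. Of 14 adipogenic transcription factors measured, 7 were higher in replicates 1 to 3 and 2 in replicates 4 to 6, beside 14.4% and 20.6% of all genes.

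Known PPAR targets did not form one block. Of 12, 8 were higher in replicates 1 to 3 and 2 in replicates 4 to 6, beside 14.4% and 20.6% of all genes. Their median was 0.43. Several of these targets were already counted above. Cidec, Fabp4, Lpl and Aqp7 are also adipocyte markers, Plin2 is also a droplet gene, and Acadm and Acadl are also β-oxidation genes. Angptl4, a secreted inhibitor of lipoprotein lipase and a direct target of these receptors, read 13.17, 13.08 and 13.28 against 13.29, 13.26 and 13.21. The agonist arrays of Angptl4 lay above its 6 DMSO arrays (12.90 to 13.04) on both sides. Over all 6 arrays Angptl4 was higher with agonist than with DMSO by 0.25 ± 0.05 (SE; limma adjusted p = 0.0014), and the value was 0.25 within each side. Slc27a1, a fatty acid transporter, was 0.13 apart between the sides, and was 0.29 above DMSO in replicates 1 to 3 and 0.20 in replicates 4 to 6. Acot1, an acyl-CoA thioesterase, overlapped (-0.14), but a second, dim probe of it was higher in replicates 4 to 6 without overlap (-0.21). Cidec was 1.91 above same-numbered DMSO arrays in replicates 1 to 3 and 0.73 above them in replicates 4 to 6.

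**Figure D2:**
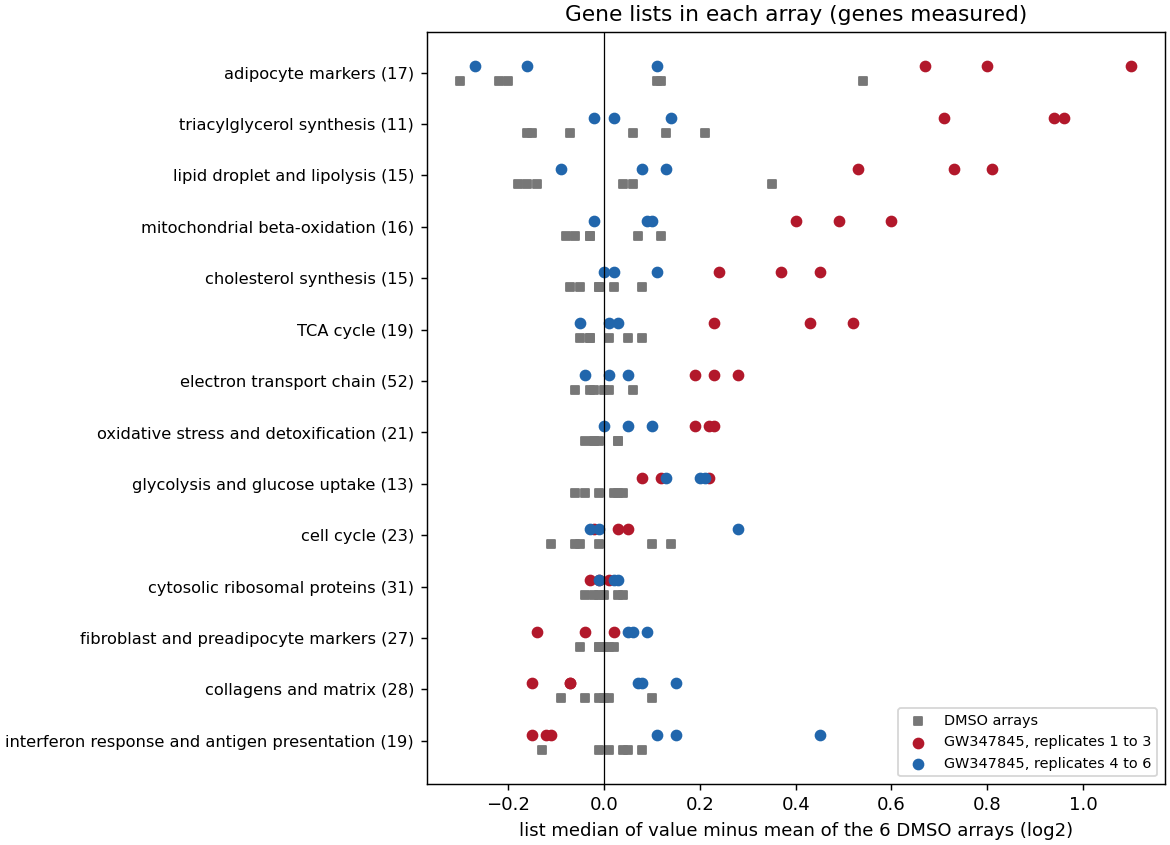
Median over each gene list of a gene's value minus its mean in the 6 DMSO arrays (x axis, log2 units), one point per array, with the number of genes measured beside each list name; GW347845 replicates 1 to 3 are red, replicates 4 to 6 blue and DMSO arrays grey squares. Adipocyte markers lay between 0.67 and 1.10 in replicates 1 to 3 and between -0.27 and 0.11 in replicates 4 to 6, while interferon genes were highest in replicate 6, at 0.45.

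Some detoxifying and secreted proteins were on the same side. Of 21 oxidative stress and detoxification genes, 11 were higher in replicates 1 to 3 and 0 in replicates 4 to 6 (median 0.19). The shares of all genes were 14.4% and 20.6%. Gsta3, a glutathione transferase, read 10.48, 10.43 and 10.60 against 9.01, 8.69 and 8.17, although a second, dim probe of it differed by 0.13. Cat, catalase, differed by 0.82 and the microsomal transferase Mgst1 by 0.55. Orm1 (9.74, 10.15 and 10.45 against 8.51, 8.16 and 7.74) and Hp, haptoglobin (7.67, 7.95 and 7.98 against 6.93, 6.80 and 6.62), are acute phase proteins that adipocytes also secrete. Saa3, another acute phase protein, lay the other way, by -0.45. Of the 16 inflammatory and acute phase genes 5 were higher in replicates 1 to 3, 1 was higher in replicates 4 to 6 and 10 overlapped, beside 14.4% and 20.6% of all genes on those sides.

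In replicates 4 to 6 the genes with the largest excess were those of the interferon response, the antiviral programme that cells start when they sense foreign nucleic acid or interferon. Of 19 genes of this list 14 were higher in replicates 4 to 6 without overlap, where 20.6% of all genes were, and 1 was higher in replicates 1 to 3. The list's median difference was -0.28. Usp18, a protease that removes the Isg15 modifier and dampens interferon signals, read 8.15, 8.06 and 7.76 against 8.93, 9.03 and 10.23. Isg15, the modifier itself, read 8.75, 8.40 and 8.39 against 9.42, 9.55 and 10.75. Oasl2, of the oligoadenylate synthetase family, read 8.14, 8.16 and 7.94 against 8.85, 9.20 and 10.37, and its dim second probe differed by -0.48. In each of these genes replicates 4 and 5 were above replicates 1 to 3 and replicate 6 was above both by more than 1 unit. Ifit3, which binds foreign RNA together with its relatives, read 9.86, 9.81 and 9.43 against 10.48, 10.60 and 11.73. Bst2, which tethers virus particles to the cell, read 9.27, 9.36 and 8.82 against 9.52, 10.45 and 10.60. The interferon-inducible GTPases Irgm2 and Igtp differed by -0.87 and -0.74, and Mx2, an antiviral GTPase of another family, by -0.71. Csprs, of the same 15, was not described further because its gene family is repeated in the genome.

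Replicate 6 set part of this excess. Rsad2, the antiviral enzyme viperin, was at 6.39 to 6.71 in the other 5 treated arrays and at 8.23 in replicate 6. Casp4, an inflammatory caspase, read 8.13, 8.01, 7.89, 8.19 and 8.05 in replicates 1 to 5 and 10.11 in replicate 6, so that its sides overlapped. Without replicate 6 the differences were -0.97 for Isg15, -0.99 for Usp18, -0.94 for Oasl2 and -0.84 for Ifit3, and the list's median was -0.17. For Rsad2 it was -0.17 and for Casp4 -0.11. In DMSO none of these genes was called, as Isg15 differed by -0.23 (adjusted p = 0.55), Usp18 by -0.12 (adjusted p = 0.83) and Ifit3 by -0.03 (adjusted p = 0.96) in limma. In the PPARδ arrays the differences of Isg15, Usp18 and Ifit3 were 0.34, 0.34 and 0.35, and none of the 3 was called. Some interferon-related genes did not follow. Irf1, a transcription factor of the response, and B2m, the light chain of class I molecules, overlapped at 0.02 and -0.08 on their brightest probes. Other probes of Irf1 were higher in replicates 4 to 6 without overlap, by -0.21 and -0.17, or overlapped at -0.12. H2-K1, a class I heavy chain named after its values were seen, was the 1 list gene higher in replicates 1 to 3, at 8.55, 8.61 and 8.85 against 7.84, 7.72 and 8.09. Ifi27l2a, which is not on the list, read 12.04, 12.24 and 12.34 against 10.47, 9.87 and 10.38.

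**Figure D3:**
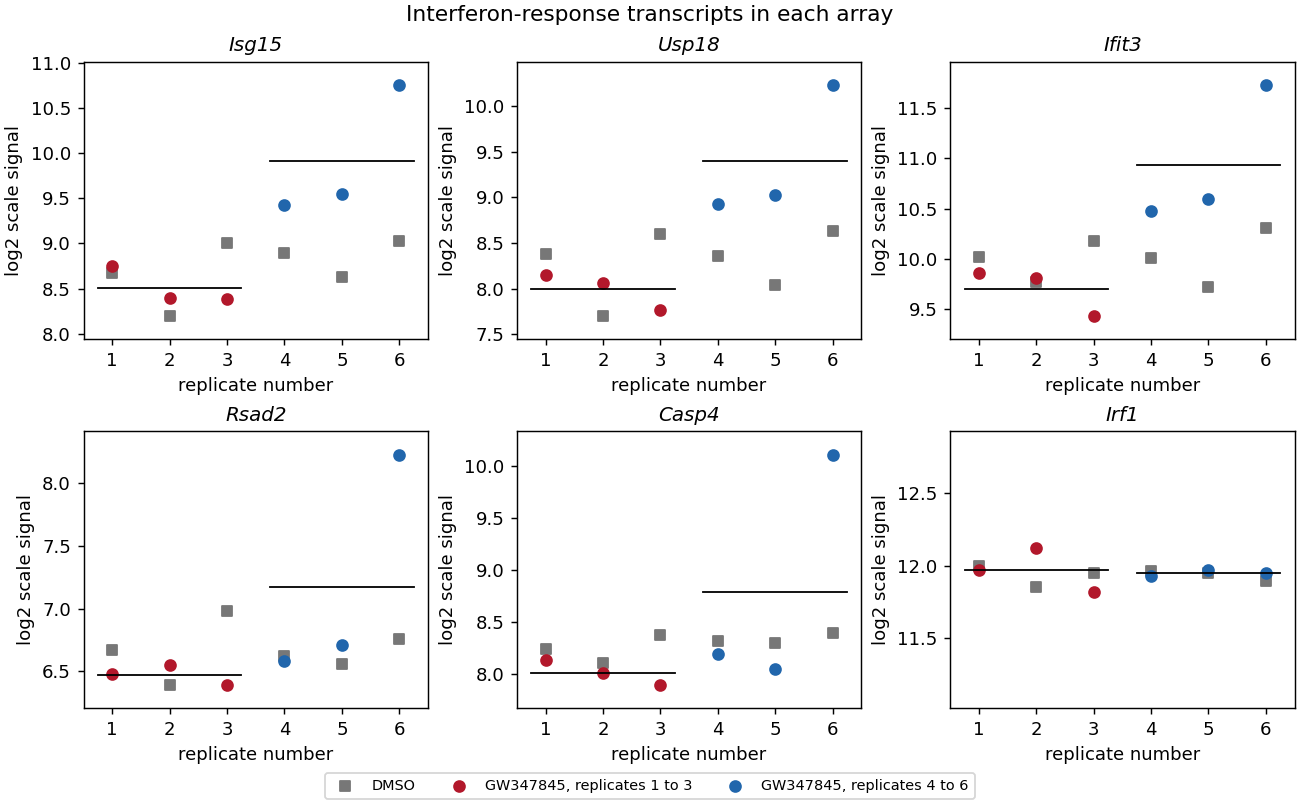
Signal (log2 scale, y axis) of 6 interferon-response transcripts in each array by replicate number (x axis), with DMSO arrays as grey squares, GW347845 replicates 1 to 3 in red, replicates 4 to 6 in blue and a black line at the mean of each side. Replicate 6 is the highest treated array in all panels except Irf1, and Casp4 is raised in it alone.

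Since several of these genes lay on one side, the stretch around their start sites was read for a shared motif. RefSeq promoters (GRCm38.p6), each from 250 bases before to 50 bases after a start, were available for 11 of the 15 genes with the largest excess in replicates 4 to 6. The core of the interferon-stimulated response element, GAAANNGAAA on either strand, was in 6 of these 11 (Bst2, Ifit3, Igtp, Irgm2, Isg15 and Rsad2) and in 3.99% of 27025 genes with a promoter in the table. Of the 9 available promoters of the 15 genes with the largest excess in replicates 1 to 3, 0 held it. The full direct repeat AGGTCANAGGTCA, a textbook form of the PPAR and RXR site, was in 0 of either group and in 0.0481% of all genes. These genes were picked by their difference, and a match is a description of the letters in this window. The 4 promoters printed below, on the strand of the gene, carry the core in capitals, as GAAANNGAAA or, for the other strand, as TTTCNNTTTC, and overlapping matches run together. Isg15 lies at chr4:156200769-156201068, Ifit3 at chr19:34583279-34583578, Bst2 at chr8:71537423-71537722 and Rsad2 at chr12:26456403-26456702.
Isg15: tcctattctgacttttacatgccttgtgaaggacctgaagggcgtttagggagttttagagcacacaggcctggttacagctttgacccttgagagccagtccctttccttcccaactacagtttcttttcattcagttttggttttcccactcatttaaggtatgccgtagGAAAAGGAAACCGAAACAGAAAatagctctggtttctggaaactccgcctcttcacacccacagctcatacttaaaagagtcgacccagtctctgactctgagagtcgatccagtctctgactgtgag
Ifit3: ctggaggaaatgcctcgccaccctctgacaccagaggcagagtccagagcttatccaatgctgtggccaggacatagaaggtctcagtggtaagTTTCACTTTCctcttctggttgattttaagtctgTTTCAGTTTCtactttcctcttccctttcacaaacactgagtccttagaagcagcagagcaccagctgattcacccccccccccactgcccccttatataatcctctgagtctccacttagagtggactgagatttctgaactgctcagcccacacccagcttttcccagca
Bst2: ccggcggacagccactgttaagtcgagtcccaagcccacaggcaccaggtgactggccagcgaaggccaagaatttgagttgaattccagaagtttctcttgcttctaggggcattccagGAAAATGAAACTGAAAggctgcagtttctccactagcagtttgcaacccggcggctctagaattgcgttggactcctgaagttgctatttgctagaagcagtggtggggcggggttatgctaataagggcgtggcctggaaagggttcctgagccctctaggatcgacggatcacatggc
Rsad2: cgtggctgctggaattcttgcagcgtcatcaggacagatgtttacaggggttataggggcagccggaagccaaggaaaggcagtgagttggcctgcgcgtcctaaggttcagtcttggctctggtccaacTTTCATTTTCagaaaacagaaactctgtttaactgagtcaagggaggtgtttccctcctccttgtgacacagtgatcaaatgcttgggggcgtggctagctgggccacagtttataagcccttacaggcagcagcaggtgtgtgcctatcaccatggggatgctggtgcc
The Isg15 stretch held 3 matches, the first beginning 78 bases before the start site, the Ifit3 stretch held 2, the Bst2 stretch held 2 overlapping ones and the Rsad2 stretch held 1.

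Matrix and fibroblast genes were also found on the side of replicates 4 to 6. Of 28 collagen and matrix genes 15 were higher in replicates 4 to 6, where 20.6% of all genes were, and 0 in replicates 1 to 3. Their median was -0.19, and it was -0.09 with the mean over all probes of a gene. Mfap5, a microfibril protein, read 7.45, 7.51 and 7.64 against 8.43, 8.43 and 8.28, and its DMSO arrays lay between 7.96 and 8.48. For Mfap5 it was replicates 1 to 3 that lay outside the vehicle range. Col1a1, a chain of type I collagen, read 12.06, 11.98 and 12.22 against 12.65, 12.41 and 12.85, above all 6 DMSO arrays on the second side. Fn1, fibronectin, read 8.07, 8.07 and 8.10 against 8.55, 8.57 and 8.79, and Thbs2, a matricellular protein, 12.90, 12.71 and 12.84 against 13.42, 13.28 and 13.27. Not all collagens were split. Col1a2, the partner chain of Col1a1, read 9.28, 9.04 and 9.39 against 9.07, 9.07 and 9.62. Col1a2 fell by 0.71 with agonist over all 6 arrays (limma adjusted p = 4.1e-05), with changes of -0.75 in replicates 1 to 3 and -0.67 in replicates 4 to 6. Col5a2 differed by -0.03 between the sides, and by -0.19 without overlap on a second probe, and fell by 0.78 with agonist over all 6 arrays (limma adjusted p = 6.2e-07). Col4a2, of basement membrane, differed by -0.03.

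Of 27 fibroblast and preadipocyte markers 12 were higher in replicates 4 to 6 and 2 in replicates 1 to 3 (median -0.10), beside 20.6% and 14.4% of all genes. Vim, vimentin, read 12.44, 12.33 and 12.25 against 12.60, 12.72 and 12.78. Gata2, a factor that holds precursors back from differentiation, read 9.04, 9.12 and 9.23 against 9.60, 9.42 and 9.62. Mmp3, a matrix protease, differed by -0.42, and by -0.66 and -0.77 on its other probes, and lay below DMSO on both sides, with a change of -1.32 on the first and -1.01 on the second (limma adjusted p = 1e-06 over all 6). S100a4, a fibroblast marker, went the other way (0.35). Sfrp2, a secreted Wnt modulator, lay between 7.77 and 8.11 in all 6 treated arrays and between 8.97 and 9.17 in DMSO. Sfrp2 fell by 1.14 with agonist (limma adjusted p = 5.1e-08), with changes of -1.16 in replicates 1 to 3 and -1.12 in replicates 4 to 6. Gas6, a growth-arrest ligand, overlapped between the sides too. Of 21 contractile and cytoskeletal genes 6 were higher in replicates 4 to 6, near the 20.6% of all genes, and 1 in replicates 1 to 3, with Tpm1, a tropomyosin, at -0.35 and the tubulin Tubb6 at -0.20.

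Stress genes differed singly rather than as a list. Of 18 endoplasmic reticulum stress genes 6 were higher in replicates 4 to 6 and 1 in replicates 1 to 3, beside 20.6% and 14.4% of all genes. Chac1, which degrades glutathione, read 11.05, 10.82 and 10.97 against 11.79, 11.78 and 11.51, and Trib3, a pseudokinase of the same stress arm, 10.83, 10.61 and 10.73 against 11.39, 11.48 and 11.31. Both were split to a like degree in DMSO, by -0.71 and -0.48. Xbp1, a factor of another arm, lay between 11.63 and 11.72 in all 6 treated arrays. Dnajb9, a chaperone of the reticulum, was the 1 gene higher in replicates 1 to 3, by 0.59. Yap1, a growth regulator, differed by -0.81 and Birc2, an apoptosis inhibitor, by -0.81, and replicate 6 was highest in both, at 11.04 and 10.13. The 3 other probes of Birc2 were dim and differed by -0.22 to -0.24.

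The remaining lists were separated in both directions or little. Of 23 cell cycle genes 3 were higher in replicates 4 to 6 and 0 in replicates 1 to 3, with a median of -0.04, and Prc1 and Aurka, which act in mitosis, differed by 0.01 and -0.01. Kif23, a mitotic kinesin, differed by -1.0 on its bright probe and by -0.13, with overlap, on its dim one. Of 31 ribosomal protein genes 2 were higher in replicates 1 to 3 and 6 in replicates 4 to 6, and Rplp2 lay between 14.09 and 14.18 in all 6 arrays. The counts higher in replicates 1 to 3 and higher in replicates 4 to 6 were 3 and 2 of 12 heat shock genes, 3 and 2 of 14 immediate early genes, 4 and 3 of 13 insulin signalling genes and 3 and 3 of 14 hypoxia genes, beside 14.4% and 20.6% of all genes. Both directions together, the shares without overlap in these 4 lists were at or above that of all genes, and their medians were -0.05, 0.00, -0.05 and -0.04. The markers of other cell types were few. Macrophage (2), endothelial (2) and osteoblast and chondrocyte (3) markers gave 1 gene without overlap, the matrix proteoglycan gene Ogn.

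DMSO arrays of the same numbers were split in part. In limma, with p-values adjusted over all probes, 88 genes (1.06%) were higher in DMSO replicates 1 to 3 and 26 (0.313%) in DMSO replicates 4 to 6. By overlap alone the counts were 704 (8.48%) and 802 (9.67%). Cidec was higher in DMSO replicates 1 to 3 by 1.21 ± 0.14 (SE; adjusted p = 0.00053), Scd1 by 1.40 ± 0.13 (adjusted p = 0.00015) and Dgat2 by 1.00 ± 0.13 (adjusted p = 0.00099). Among the 17 adipocyte markers 9 were called in that direction, and the median was 0.50, against 1.33 with agonist. Adipoq was one of them, at 13.10, 13.07 and 13.58 against 12.61, 12.40 and 12.55. Of the lipid droplet list 6 of 15 were called, of triacylglycerol synthesis 5 of 11 and of electron transport 0 of 52. The list of electron transport thus had a median of 0.02 in DMSO and 0.30 with agonist. Chac1 was higher in DMSO replicates 4 to 6, by -0.71 ± 0.08 (adjusted p = 0.00023). The count of calls moved whichever array was left out. At the probe level 175 were called, and leaving out DMSO replicate 1, 4, 5 or 6 gave 78, 48, 51 or 57, while leaving out DMSO replicate 2 or 3 gave 293 or 423. With the methods' t-test 0 probes were called after adjustment and 1377 at an unadjusted p under 0.05.

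Of the 83 genes higher in agonist replicates 1 to 3 by 1 or more, 81 had a DMSO difference of the same sign and 51 were called in DMSO. Their median difference was 1.34 with agonist, 0.45 in DMSO and 0.18 with the PPARδ agonist. Agonist replicates 1 to 3 lay above the DMSO range in 68 of the 83 and within it in 15. Agonist replicates 4 to 6 lay within the DMSO range in 68, below it in 12 and above it in 3. Of the 58 genes higher in agonist replicates 4 to 6 by 0.5 or more, 47 had the same sign in DMSO and 4 were called. In these 58 the median difference was -0.59 with agonist and -0.12 in DMSO. Both groups of genes were picked by their agonist difference, so its larger size there followed from the choice. The places of the sides in the DMSO range were also partly set by it. Genes without overlap in both were 307 of those higher in replicates 1 to 3, 25.8% of the agonist list and 43.6% of the DMSO list, and 253 of those higher in replicates 4 to 6, 14.8% and 31.5%. Across 13755 probes the differences between sides of agonist and DMSO arrays correlated at r = 0.50, over arrays that share 1 normalization and probe brightness.

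**Figure D4:**
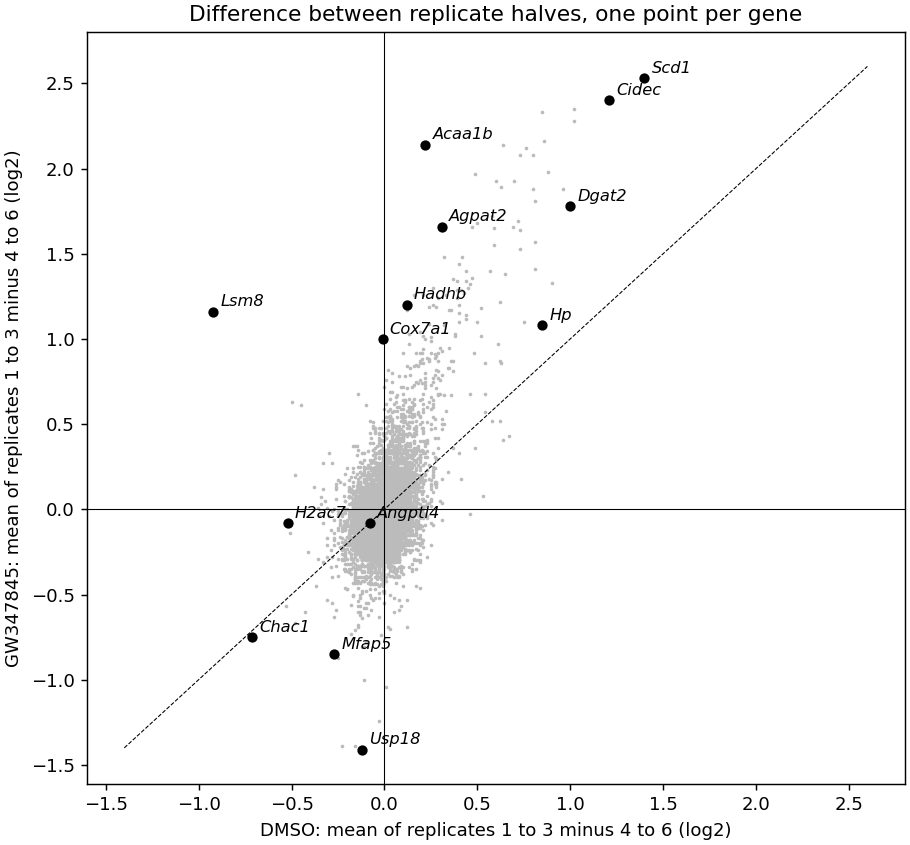
Mean of replicates 1 to 3 minus replicates 4 to 6 for each of 8297 genes, in DMSO (x axis, log2 units) and with GW347845 (y axis, log2 units), with named genes in black and a dashed line of equal difference. Most genes with a difference over 1 with agonist lie above the line, Cox7a1 and Acaa1b have little difference in DMSO, and Lsm8 lies on opposite sides of 0 (1.16 with agonist, -0.92 in DMSO).

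Some genes were split in one treatment or in opposite directions. Acaa1b differed by 2.14 with agonist and by 0.22 in DMSO (limma adjusted p = 0.26). Agpat2 differed by 1.66 with agonist and by 0.31 in DMSO (adjusted p = 0.20). Lsm8, a subunit of the ring that binds U6 RNA, read 11.93, 12.28 and 11.84 against 10.78, 10.63 and 11.18 with agonist. In DMSO it read 10.99, 10.80 and 10.94 against 12.14, 11.34 and 12.01, a difference of -0.92 ± 0.14 (adjusted p = 0.004). Lsm8 was thus above the DMSO arrays of the same numbers in replicates 1 to 3 and below them in replicates 4 to 6. Over all 6 arrays its change was 0.07 (limma adjusted p = 0.89). The histone genes H2ac7 and H2ac15 were higher in DMSO replicates 4 to 6, by -0.52 (adjusted p = 0.0099) and -0.53 (adjusted p = 0.011), and overlapped with agonist, at -0.08 each. The array probes for such near-identical histone genes may read several of them.

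The PPARδ agonist arrays were split least. No probe was called in limma between their replicates 1 to 3 and 4 to 6, with 561 at an unadjusted p under 0.05 and 639 by the methods' t-test without adjustment. Without overlap were 315 of 8196 genes (3.84%) in one direction and 499 (6.09%) in the other. Adipocyte markers had a median of 0.23 there, and Scd1 and Cidec differed by 0.57 and 0.31.

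The division bore on the comparison of agonist with DMSO. Over all 6 arrays a side limma called 847 genes (10.2%) higher with the agonist and 1063 (12.8%) lower. Of the 17 adipocyte markers 4 were called higher. Against the DMSO arrays of the same numbers their median change was 0.74 for replicates 1 to 3 and 0.11 for replicates 4 to 6. Over the 83 genes higher in replicates 1 to 3 by 1 or more the median change was 1.05 on the first side and 0.09 on the second. These genes were picked for being higher on the first side, so the larger change there largely followed from the choice. Cidec was 1.32 ± 0.51 (SE) above DMSO over all 6 and was not called (adjusted p = 0.073). Against DMSO arrays of the same numbers Scd1 differed by -0.24 in replicates 1 to 3 and by -1.37 in replicates 4 to 6. Over all 6 it was not called (limma adjusted p = 0.30), and it was itself split in DMSO, by 1.40. Acaa1b, at 2.68 and 0.76 above DMSO, was called (adjusted p = 0.0066), as was Gpd1, at 1.79 and 0.70 (adjusted p = 0.031). Pparg was 0.16 above DMSO in replicates 1 to 3 and below it in replicates 4 to 6, by -0.25, and was not called (adjusted p = 0.86). Whether these changes differ between the sides was not tested, since the sides were chosen on the same arrays. Each change by side was taken against DMSO arrays of the same numbers, though the numbers were not taken to pair the samples. Its size, and for Scd1 in replicates 1 to 3 its sign, would be another against all 6 DMSO arrays.

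Replicate 6 stood furthest from the first side. It was the lowest treated array in 66 of the 83 genes higher in replicates 1 to 3 by 1 or more, and the highest in 35 of the 58 genes higher in replicates 4 to 6 by 0.5 or more. It correlated at 0.9923 to 0.9943 with replicates 4 and 5 and at 0.9837 to 0.9870 with replicates 1 to 3. With the DMSO arrays the range was 0.9882 to 0.9914. Adig differed in it by -2.03 from the mean of the other 5 treated arrays, and Mrap by -1.83. Without replicate 6 the probes without overlap numbered 2630 higher in replicates 1 to 3 and 3890 higher in replicates 4 and 5. With fewer arrays to overlap such counts must be larger, so they say nothing of the part of replicate 6. RNA quality, chip and scan were not recorded in the sources used here, and their part in the division was not tested.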

How the data were processed

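Biotin-labelled total RNA from 3T3-L1 adipocytes was hybridised by the authors to Illumina WG-6 mouse bead arrays, with 6 arrays for each agonist and for DMSO. The deposited log2 values had been variance-stabilized and quantile normalized by the authors with lumi, each agonist set with its own copy of the DMSO arrays, and restricted to probes detected in at least 1 sample. All 12 arrays of a set shared the same percentiles, so centring them changed nothing. The array number limits the precision, and depth does not apply. Of 13964 probes in the table, 12157 had 1 gene symbol in the platform annotation, 4 had several and 1803 none. Each gene was taken on its brightest probe, and 468 of 684 list entries matched one.

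Sides of the PPARγ agonist arrays were described by differences of means and by overlap, without a test. DMSO and PPARδ arrays of the same numbers, and agonist against DMSO, were tested with limma 3.58.1 in R 4.3.3 (lmFit and eBayes, Benjamini-Hochberg over all probes, adjusted p under 0.05), within 1 normalization each, and the procedure was tested on simulated data. Genes were named as the 15 with the largest difference in each direction, up to 4 separated and 3 least separated per list, the receptors, 5 called in each direction between the 2 sets of DMSO arrays and 5 in each direction in replicate 6; 4 more are marked as chosen after their values were seen. The members and lists were chosen with earlier results of these data known. Alternatives were loess, probe filters, other variance models, blocks, the methods' t-test and leaving out arrays. Promoters came from RefSeq. The values were drawn with Python 3.11.15, pandas 2.3.3, numpy 2.4.6 and matplotlib 3.10.9.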

Additional observations from a re-analysis of the deposited data

Results flagged for a closer look

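In 14 named genes the mean change from DMSO had one sign in all 3 of agonist replicates 1 to 3 and the opposite sign in all 3 of replicates 4 to 6, each against the mean of the DMSO arrays of those numbers. The difference between the 2 changes was not tested, because the sides were chosen on these arrays. The numbers were not taken to pair the samples, so another choice of DMSO arrays could change the size or sign. Several genes lay above vehicle on the first side and below it on the second. The changes were 0.67 and -0.44 for Orm1, 0.68 and -0.16 for Cpt2 and 0.48 and -0.09 for Mdh1. They were 0.40 and -0.51 for Gsta3 and 0.16 and -0.25 for Pparg. The widest pair was that of Lsm8, at 1.11 and -0.97. The reverse held for interferon genes, with -0.23 and 1.05 for Usp18, -0.29 and 0.92 for Ifit3, -0.25 and 0.80 for Bst2, -0.20 and 0.52 for Igtp and -0.07 and 0.49 for Mx2. It held also for Fn1 (-0.04 and 0.42), Thbs2 (-0.48 and 0.06) and Birc2 (-0.12 and 0.57).

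In 14 of 334 groups of 6 arrays 1 array lay far from the rest, and chance flags about 1 group in 20. Among the PPARγ agonist arrays these were replicate 6 for Rsad2, at 8.23, and for Casp4, at 10.11. Among the PPARδ agonist arrays replicate 2 was high for Pgam1 (9.17), Pkm (12.08), Prc1 (9.42), Aurka (8.23), H2ac7 (12.95) and H2ac15 (10.98), and replicate 6 was high for Mfap5 (8.23). In DMSO replicate 5 was low for Hadhb (10.06), replicate 3 was high for Lss (8.11) and Scd2 (7.84), and replicate 1 was high for Xbp1 (11.64) and S100a4 (10.73).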

How the results depend on the processing

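Of the 112 named genes 96 kept the sign of their difference between the sides in every setting, and 19 values moved by more than the spread between replicates. Without replicate 6 the differences were 0.18 for Pgk1, 0.27 for H2ac7 and 0.13 for Aurka, against -0.02, -0.08 and -0.01. Of the 28 list medians 23 did. Cyclic loess turned the hypoxia median from -0.04 to 0.00 and gave -0.14 for matrix, -0.06 for contractile, -0.07 for endoplasmic reticulum stress, 0.00 for heat shock, 0.24 for detoxification and -0.02 for ribosomal genes. The mean over all probes of a gene gave 0.20 for fatty acid synthesis, -0.09 for matrix and -0.07 for contractile genes. Without 1 agonist array the medians ran from 1.06 to 1.55 for adipocyte markers, from -0.17 to -0.08 for contractile, from -0.16 to -0.07 for reticulum stress, from 0.15 to 0.24 for detoxification and from -0.07 to -0.02 for hypoxia genes.

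Of 13755 probes, 1878 were higher in agonist replicates 1 to 3 and 2674 in 4 to 6 without overlap, against 405 and 80 with a difference of 0.5 or more and 1191 and 1711 when counted as genes. The 175 probes called between the 2 sets of DMSO arrays became 77 with a trended robust variance, 489 with array weights, 32 with 4 groups in 1 fit, 1689 without adjustment, 0 by the methods' t-test adjusted and 1377 unadjusted, the last chosen after seeing the data, and 48 to 423 without 1 array. The PPARδ count of 0 became 561 without adjustment and 639 by the unadjusted t-test. For agonist against DMSO, 3282 probes were called, 5007 without adjustment and 2654 to 4013 without 1 array. A replicate block gave 3751 and replicates 1 to 3 and 4 to 6 as a block 4146. The latter block was chosen on these same agonist values, so a larger count with it followed in part from the choice. Same-numbered agonist and DMSO arrays deviated together at r of -0.014 to 0.544, and 3 of 6 correlated best with their own number, so the numbers were not taken to pair the samples. The causes of these moves were not tested. Dim probes near the lowest level of the arrays limit what can be said of Fabp4, Lep and Slc2a4.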
